A study of Mus musculus with 4 samples.

Results

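The 9 transcription factors described here, Gata3, Rora, Tbx21, Eomes, Bcl11b, Zbtb16, Tcf7, Id2 and Sox4, were chosen by symbol because they mark or shape innate lymphoid cells. All 9 were found among the 17920 genes seen in at least 10 cells. Their raw UMIs (unique molecular identifiers, each counting 1 captured RNA molecule) were read in 7 lymphoid classes that hold 20556 of 35064 cells. The cells were CD45+ leukocytes from the salivary glands of mice 20 days of age, enriched on magnetic beads, sorted and profiled with a 10x 3′ kit. Mice of the strain labelled C56BL/6 with the genotype Csf2+/- were compared with Csf2-/- mice, with 1 female and 1 male library per genotype. Each library pooled 2 mice, both groups carry at least 1 altered Csf2 allele, and no wild-type library was analysed here. Csf2 encodes GM-CSF, a myeloid growth factor that the series attributes to group 2 innate lymphoid cells (ILC2s).

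Innate lymphoid cells lack rearranged antigen receptors and are sorted into groups by the cytokines they make and the transcription factors they need. GATA3 and RORα are required for ILC2s, T-bet (Tbx21) for ILC1s and EOMES for conventional natural killer (NK) cells. ID2 blocks the E proteins that drive B and T cell fates, TCF-1 (Tcf7) and PLZF (Zbtb16) act in early innate lymphoid precursors, and BCL11B commits T cells and supports ILC2s. SOX4 is an HMG-box factor active in progenitors and in some T cells.

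The 4 libraries held 9322 to 10090 barcodes and 111981802 to 122366588 UMIs, with fewer UMIs per barcode in Csf2-/- (medians of 8953 and 9003) than in Csf2+/- (10586 and 10085.5). Between 20 and 38 cell barcodes were shared by any pair of libraries. In the lymphoid classes the mitochondrial share of UMIs ran from 2.02% to 2.99% and was lower in both Csf2-/- libraries than in both Csf2+/- libraries in each of the 7, and its part in the genotype values was not tested. Csf2 itself stood at 125 and 138 CPM (a gene's UMIs scaled to the same total in every class and library) in ILC2-like cells of the Csf2+/- female and male libraries and at 6.45 and 5.81 in the Csf2-/- libraries. That fall was 4.49 on the log2 scale (SE 0.10, edgeR's quasi-likelihood test with Benjamini-Hochberg adjustment, adjusted p = 6.54e-09). Which part of the gene was removed is not given in the sources used here, so the remaining 82 and 105 UMIs say nothing of the protein.

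Cells were clustered without the 9 members, and clusters were named from markers that also leave them out, so the members' levels did not set the names. Levels between classes are descriptions without a test, because the classes themselves come from the same cells. The ILC2-like class (6240 cells) carried Il1rl1, the IL-33 receptor, at a mean of 913 CPM. NK-like cells (7744) carried the receptor gene Klra8 at 381 CPM, against 10.6 CPM in ILC1-like cells (2509), while Ncr1 stood at 233 and 296 CPM in those classes. Itga1, often used to set ILC1s apart, was at 231 CPM in ILC1-like cells but also at 129 CPM in NK-like cells. ILC3-like cells (303) had Il23r, a receptor subunit for IL-23, at 568 CPM, and the gamma-delta T-like cells (1687) had it at 797 CPM. The alpha-beta T-like (667) and innate-like T-like (1406) classes had Cd3e, a T cell receptor subunit, at 439 and 491 CPM.

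Cd3 transcripts were not confined to the T classes. At least 1 UMI of a Cd3 gene was found in 97.6% to 100% of cells of the T classes, in 51.1% to 54.1% of NK-like cells and in 31.4% to 40.3% of ILC1-like and ILC2-like cells. NK-like cells therefore go against the rule that most cells of that class lack Cd3 UMIs, although Cd3e itself was at 14.5 CPM there and at 5.05 and 2.40 CPM in ILC2-like and ILC1-like cells. ILC3-like cells stood apart, with Cd3e at 93.8 CPM and a Cd3 UMI in 35.1% to 59.6% of cells, and the T cell receptor gene Trdc was at 108 CPM there. Bcl11b, Zbtb16 and Tcf7 in this class are therefore also given for the cells without a Cd3 UMI, where Trdc was at 37.1 CPM.

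Gata3 separated ILC2-like cells from the other lymphoid classes. Its level was 1039, 1125, 934 and 1043 CPM in ILC2-like cells. Here and below, 4 values in a row are the female and male Csf2+/- libraries, then the female and male Csf2-/- libraries. ILC3-like cells came next at 155, 88.9, 137 and 144 CPM. All 4 ILC2-like values lay above those of the other 6 lymphoid classes, and the mean was 7.89 times that of ILC3-like cells. From ILC3-like to innate-like T-like cells neighbours in the order overlapped, between means of 131 and 92.2 CPM. NK-like cells were lowest at 72.6 ± 5.10 CPM (SD, n = 4 libraries), still above the 5.28 CPM of B-like and 13.6 CPM of macrophage-like cells. Outside the 7 lymphoid classes, eosinophil-like cells had 85.8, 270.4, 139 and 605 CPM, from 13 to 74 UMIs per library.

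Rora was graded rather than restricted. The mean went down stepwise from 2526 ± 300.1 CPM in ILC2-like cells to 1852 ± 121 in ILC3-like, 1311 ± 142 in gamma-delta T-like, 783 ± 61.3 in ILC1-like, 395 ± 37.7 in alpha-beta T-like, 224 ± 25.7 in innate-like T-like and 73.3 ± 15.3 in NK-like cells (SD, n = 4 libraries each). No neighbouring classes in this order overlapped in any library. The ILC2-like values were 2631, 2902, 2314 and 2257 CPM and the ILC3-like values 1915, 1798, 1712 and 1984. ILC1-like cells, which share many receptors with NK-like cells, stood apart from them in Rora in every library. Macrophage-like cells had 62.8 CPM, near the NK-like level.

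Tbx21, which encodes T-bet, was highest in ILC1-like cells at 171, 192, 175 and 174 CPM. Innate-like T-like cells followed at 100.1, 119, 95.2 and 96.7 CPM and overlapped NK-like cells at 99.6, 110.1, 98.2 and 96.8. Below these came alpha-beta T-like (52.0 CPM), ILC3-like (29.1), gamma-delta T-like (10.8) and ILC2-like cells (2.58), each apart from the next. The ILC2-like level rests on 24 to 56 UMIs per library and lay under the 4.92 CPM of macrophage-like cells.

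Eomes, the second T-box factor, marked NK-like cells at 238, 256, 229 and 260 CPM. The next class, alpha-beta T-like, had 23.3, 22.4, 25.4 and 16.2 CPM, a mean 11.3 times lower, and overlapped innate-like T-like cells at 19.0 ± 6.06 CPM. ILC1-like cells had 14.9, 14.5, 11.1 and 4.64 CPM, so the ILC1-like and NK-like classes differed 21.8-fold in Eomes and 1.76-fold, in the other direction, in Tbx21. In ILC2-like, ILC3-like and gamma-delta T-like cells no library exceeded 3.08 CPM, while the mean in macrophage-like cells was 5.20 CPM.

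Bcl11b was not restricted to the T classes. ILC3-like cells had 415, 529, 460 and 417 CPM and gamma-delta T-like cells 437, 502, 426 and 446 CPM. These overlapped each other and the alpha-beta T-like cells at 385 ± 57.8 CPM. ILC2-like cells had 286 ± 24.7 CPM, above innate-like T-like cells (136 ± 20.3), ILC1-like cells (68.4 ± 10.98) and NK-like cells (16.0 ± 5.48), with no overlap among these 4 classes. Without cells holding a Cd3 UMI the ILC3-like values were 494, 407, 366 and 273 CPM with a mean of 385 CPM.

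Zbtb16, the gene of PLZF, was highest in gamma-delta T-like cells at 499, 727, 402 and 387 CPM. ILC3-like cells overlapped them at 458, 509, 356 and 429 CPM, and without Cd3-bearing cells stood at 357, 495, 171 and 310. Innate-like T-like cells had 146 ± 29.0, ILC2-like cells 89.1 ± 17.1, ILC1-like cells 78.1 ± 15.9 and NK-like cells 27.5 ± 3.81 CPM. Alpha-beta T-like cells were lowest at 10.8 ± 3.41 CPM, 46.8 times under the gamma-delta T-like class. Monocyte-like (53.6 CPM) and macrophage-like cells (35.4) also carried it, both above the NK-like mean.

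Tcf7, which keeps T cells and innate precursors in an early state, had its highest mean in alpha-beta T-like cells when all cells were counted. Alpha-beta T-like cells had 127, 144, 103 and 113 CPM and ILC3-like cells 122, 100.02, 95.6 and 92.0, which overlap. Without cells holding a Cd3 UMI the ILC3-like values were 137, 102, 138 and 119 CPM. Their mean was 124 CPM, against 122 CPM in alpha-beta T-like cells. NK-like (61.6 ± 9.13 CPM) and gamma-delta T-like cells (56.8 ± 8.54) overlapped, as did innate-like T-like (32.1 ± 4.44) and ILC1-like cells (31.5 ± 2.97). ILC2-like cells were lowest at 9.39 ± 1.94 CPM, against 4.52 CPM in B-like cells.

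Id2 was present in all 7 classes, within a range of 4.12-fold. Of these, ILC2-like cells were highest at 893, 753, 876 and 837 CPM, followed by ILC1-like cells at 523, 472, 516 and 555. From ILC1-like down to innate-like T-like cells (389 ± 53.1 CPM) each class overlapped the next. Gamma-delta T-like cells stood apart at 204 ± 12.1 CPM. Outside these classes, migratory dendritic cell-like cells were higher still at 1342 CPM, eosinophil-like (798) and cDC1-like cells (734) lay near the ILC2-like level, and B-like cells had 41.0 CPM.

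Sox4 was near the limit of detection. Alpha-beta T-like cells had 10.9, 9.22, 11.5 and 9.24 CPM, above NK-like cells at 5.58, 5.23, 7.27 and 4.91. The other classes lay between means of 3.601 and 5.26 CPM and overlapped their neighbours. B-like cells (30.5 CPM), epithelial-like cells (22.3) and migratory dendritic cell-like cells (68.4) had more than any of the 7 classes.

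**Figure D1:**
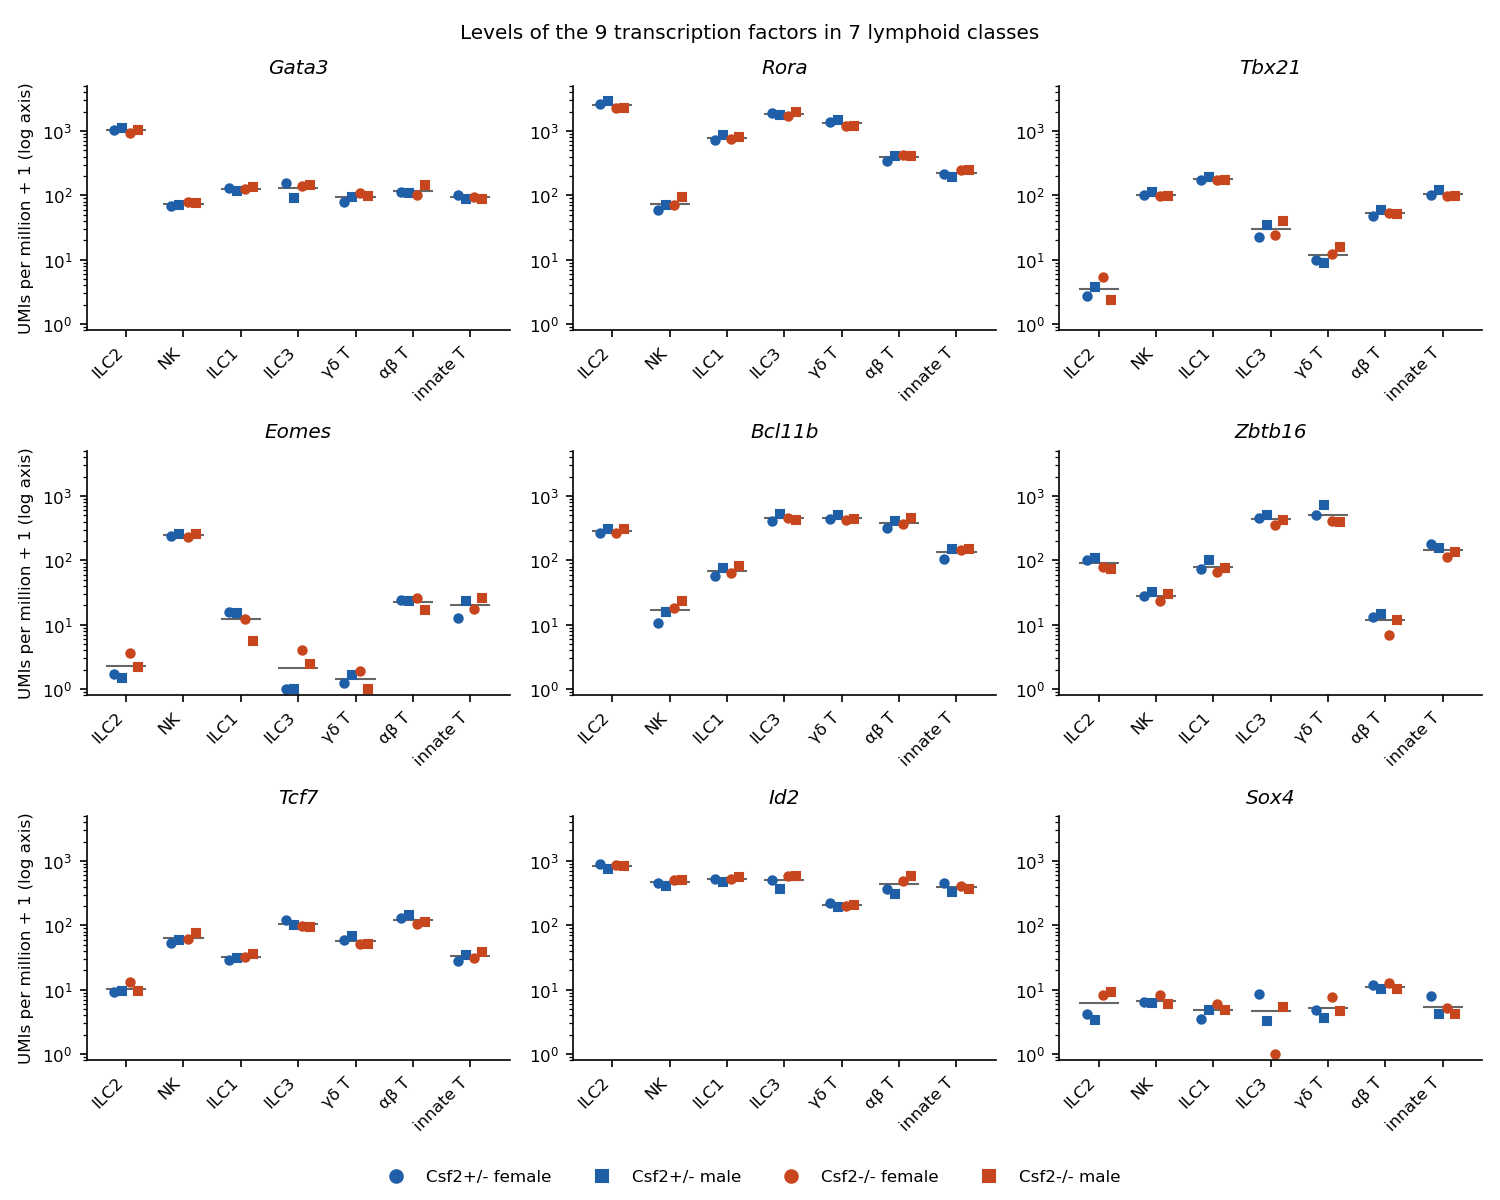
Each panel plots 1 gene, with CPM plus 1 on a log axis against the 7 lymphoid classes. Points are the 4 libraries (colour for genotype, shape for sex) and lines their mean, with Gata3 near 1035 CPM in ILC2-like cells, Eomes near 246 CPM in NK-like cells and Rora going down stepwise from 2526 to 73.3 CPM.

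Whether the factors meet in the same cells depends on depth, since NK-like cells had a median of 10198 to 12411 UMIs per library and ILC1-like cells 6351.5 to 7717.5. Shares are therefore given from all UMIs and after thinning every cell to 3000 UMIs, which left out 107 of 6240 ILC2-like, 66 of 7744 NK-like and 44 of 2509 ILC1-like cells. Free RNA in droplets also puts UMIs into cells that do not express a gene. As a floor, 2.47% of macrophage-like cells (medians of 9397 to 10434 UMIs) and 0.741% of B-like cells (4614 to 5213) had a Tbx21 UMI, and 2.04% and 0.271% an Eomes UMI, as means of the 4 libraries.

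Both T-box factors were found together in 48.2% of NK-like cells (range over libraries 44.2% to 52.1%), with Eomes alone in 32.3%, Tbx21 alone in 11.3% and neither in 8.20%. Thinned, the shares were 11.5% for both, 35.9% for Eomes alone and 14.4% for Tbx21 alone. ILC1-like cells had Tbx21 alone in 60.7%, both in 3.14% and Eomes alone in 1.49%. Their thinned share with both was 0.828%, and that with any Eomes UMI was 2.25%, against 47.4% in thinned NK-like cells and 0.802% in thinned macrophage-like cells. Innate-like T-like cells resembled ILC1-like cells in this respect, with Tbx21 alone in 49.0% and both in 6.43%. In NK-like cells the share with both was about what the separate shares give when multiplied, 47.9%, and in ILC1-like cells that product was 3.00%.

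**Figure D2:**
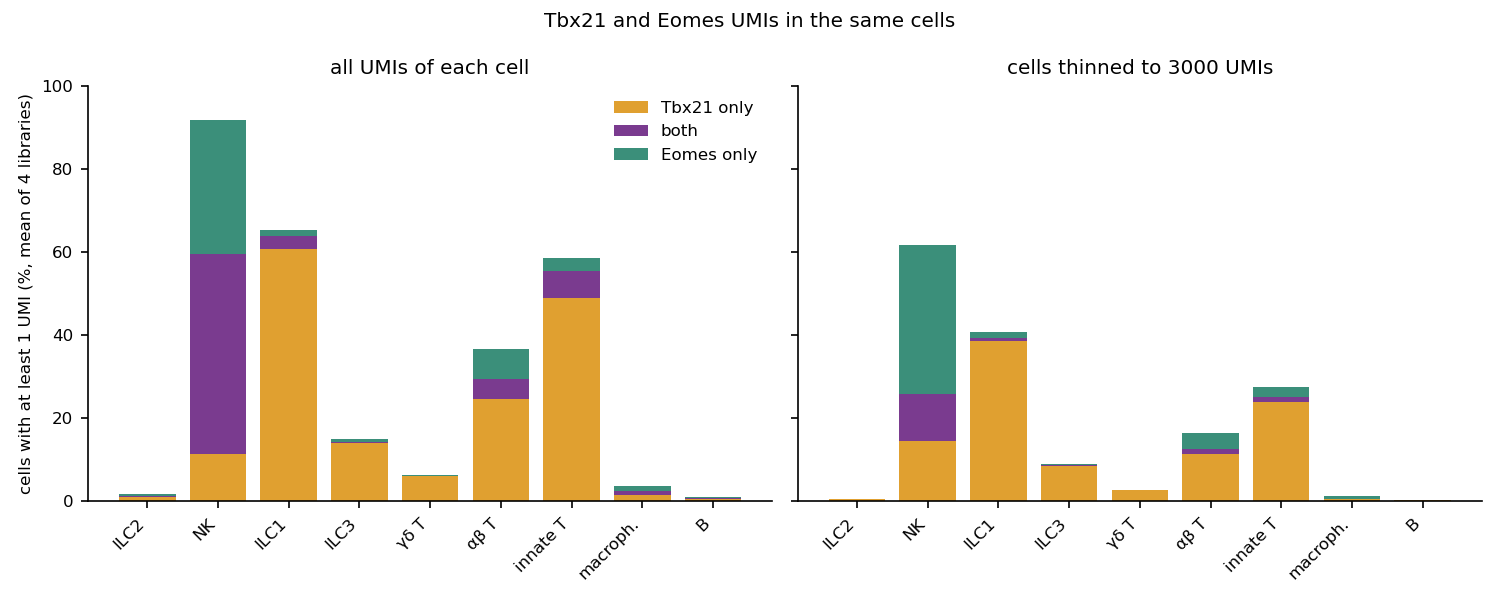
Bars give the mean share of cells, in percent over 4 libraries, with a UMI of Tbx21 only, Eomes only or both, from all UMIs and after thinning to 3000 UMIs per cell. NK-like cells are the class with many Eomes cells (both in 48.2% and 11.5%), while ILC1-like cells hold mainly Tbx21 alone (60.7% and 38.5%).

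Gata3 and Rora were found together in 96.5% of ILC2-like cells (94.7% to 97.6%) and in 84.4% after thinning. In ILC1-like cells 40.1% held both and 42.3% Rora alone. ILC3-like cells were mostly Rora alone (53.7%) or with both (44.8%). NK-like cells held Gata3 alone in 32.0% and both in 15.4%, but both in only 2.65% after thinning. Gata3 and Tbx21 met in 31.4% of ILC1-like cells and in 1.19% of ILC2-like cells, close to the products of their separate shares, 30.9% and 1.25%. After thinning these were 10.7% and 0.361%. For comparison, macrophage-like cells had a UMI of Gata3 in 4.11%, of Tcf7 in 2.31%, of Rora in 28.5% and of Id2 in 36.5% of cells. B-like cells had them in 1.30%, 1.79%, 3.10% and 12.3%. The 29.8% of NK-like cells with Rora was thus near the macrophage-like share but above the B-like share. Thinned, these shares of Rora were 13.1%, 12.8% and 1.90% in NK-like, macrophage-like and B-like cells. Whether free RNA makes up the macrophage-like share was not tested. Tcf7 and Id2 UMIs were found together in 40.3% of NK-like, 37.6% of ILC3-like and 6.98% of ILC2-like cells.

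Members also varied within classes that held several clusters. Among ILC2-like cells, cluster 3 (2506 cells, led by Arg1, Areg and Klrg1) had Rora at 1435 ± 83.5 CPM and Gata3 at 842 ± 51.5. Cluster 6 (1869 cells, led by Kcnd2, Dach2 and Il1rl1) had Rora at 3153 ± 240 and Gata3 at 1199 ± 41.7. Cluster 7 (1788 cells, led by Il13, Il5 and Calca) had 2989 ± 251 and 1070.1 ± 93.5. Zbtb16 stood at 51.8, 125 and 89.3 CPM in clusters 3, 6 and 7. Leading genes were ranked against all other cells and need not differ between these clusters. Klrg1 was at 93.4 and 99.7 CPM in clusters 3 and 6, and Arg1 at 516 and 446 CPM. Among NK-like cells, Itga1 was at 267 CPM in cluster 1 and at 49.1 CPM in cluster 0, yet Eomes was at 217 and 290 CPM and Tbx21 at 115 and 125 CPM. The NK-like cluster led by cell division genes (cluster 12, 962 cells) had Bcl11b at 43.3 CPM and Rora at 127 CPM, against 9.57 and 58.1 CPM in cluster 0. Cluster numbers only name groups of cells found here.

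Turning to the genotype, the comparison asks whether loss of GM-CSF goes with a change of these factors within each class. Of 60 tests of a member in a class, 1 passed, Id2 in alpha-beta T-like cells. With sex, which is matched between the genotypes, as a block, 10 of 60 passed, in a fit with 1 residual degree of freedom. That fit also called more of all genes in every class, with the counts and numbers tested given at the end. Eomes and Sox4 in ILC3-like cells and Eomes in gamma-delta T-like cells were too low to be tested. Without the block, 0.311% of all genes tested were called in alpha-beta T-like cells, 0.205% in innate-like T-like, 0.124% in ILC1-like, 0.0777% in ILC2-like, 0.0203% in gamma-delta T-like and 0.00784% in NK-like cells. In ILC3-like cells 0% were called by edgeR and by DESeq2, with 376 and 47 genes at an unadjusted p under 0.05. Both libraries of 1 genotype lay above both of the other in 27 of the 60 tests of members (45%). Over all genes that share was 42.3% in ILC2-like, 36.8% in NK-like, 38.4% in ILC1-like, 35.3% in ILC3-like, 37.3% in gamma-delta T-like, 39.3% in alpha-beta T-like and 35.7% in innate-like T-like cells. The members' share is near that background. With 2 libraries per genotype, which also differ in sex, p-values measure the spread between pools of mice.

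Id2 in alpha-beta T-like cells was at 364 and 310 CPM in Csf2+/- and rose to 482 and 592 CPM in Csf2-/-. The log2 change was 0.63 (SE 0.13, edgeR adjusted p = 0.0276, DESeq2 adjusted p = 0.0090). The groups do not overlap, and both Csf2-/- libraries were higher. Cells with a Cd8a or Cd8b1 UMI and no Cd4 UMI had 380 and 298 CPM against 499 and 609, and cells with a Cd4 UMI and no Cd8 UMI had 324 and 329 CPM against 489 and 652. Cells with neither, 8.13% to 15.6% of the class, had 363 and 321 CPM against 460 and 233, the Csf2-/- male library being lowest, from 10 to 37 cells per library. Cells with only Cd8 UMIs made up 56.9% and 48.8% of the class in Csf2+/- and 52.1% and 43.8% in Csf2-/-. Without the Csf2-/- male library the log2 change was 0.51 with an adjusted p of 0.106 (edgeR). At the coarser Leiden resolution, where alpha-beta T-like and innate-like T-like cells formed 1 cluster of 2076 cells, it was 0.20 with an adjusted p of 0.719.

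Other genes of the alpha-beta T-like cells differed beside Id2. Of 34 other lymphoid transcription factors tested, 4 fell and none rose by the test. These were Bach2, a repressor of effector differentiation (464 and 604 CPM against 333 and 305, adjusted p = 0.00441), Pparg, a nuclear receptor (18.6 and 36.9 against 5.08 and 7.70), Tox (387 and 439.7 against 254 and 302) and the chromatin organiser Satb1 (728 and 739 against 524 and 503, adjusted p = 0.0276), all by edgeR. Their list had a median log2 change of -0.21, against 0.00 over all genes of the class. Ccr7, the receptor that guides naive T cells to lymph nodes, fell from 224 and 203 to 125 and 105 CPM (log2 change -0.91, SE 0.13, edgeR adjusted p = 0.00146). Gzmb, the cytotoxic granzyme B, rose from 110.2 and 122 to 256 and 222 CPM, and Ifng from 83.8 and 67.8 to 153 and 150.2 CPM. Of 20 NK and ILC1 genes tested, these were the 2 that passed. Tcf7, which like Lef1 and Ccr7 is typical of naive T cells, had 127 and 144 CPM against 103 and 113 (log2 change -0.37, SE 0.13, edgeR adjusted p = 0.323).

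Some values from outside the T cell lists moved with this class. The summed level of 7 myeloid genes was 1638 and 939 CPM in Csf2+/- and 1945 and 1542 in Csf2-/-, with none of the 7 called. The summed level of 8 dissociation genes was 2339 and 2316 CPM against 2907 and 2731, and Fos and Hspa1a of that list rose. Id2 in macrophage-like, cDC2-like and monocyte-like cells was 148, 270 and 332 CPM. In cDC1-like, eosinophil-like and migratory dendritic cell-like cells it was 734, 798 and 1342 CPM. The part of all these values in the Id2 result was not tested.

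**Figure D3:**
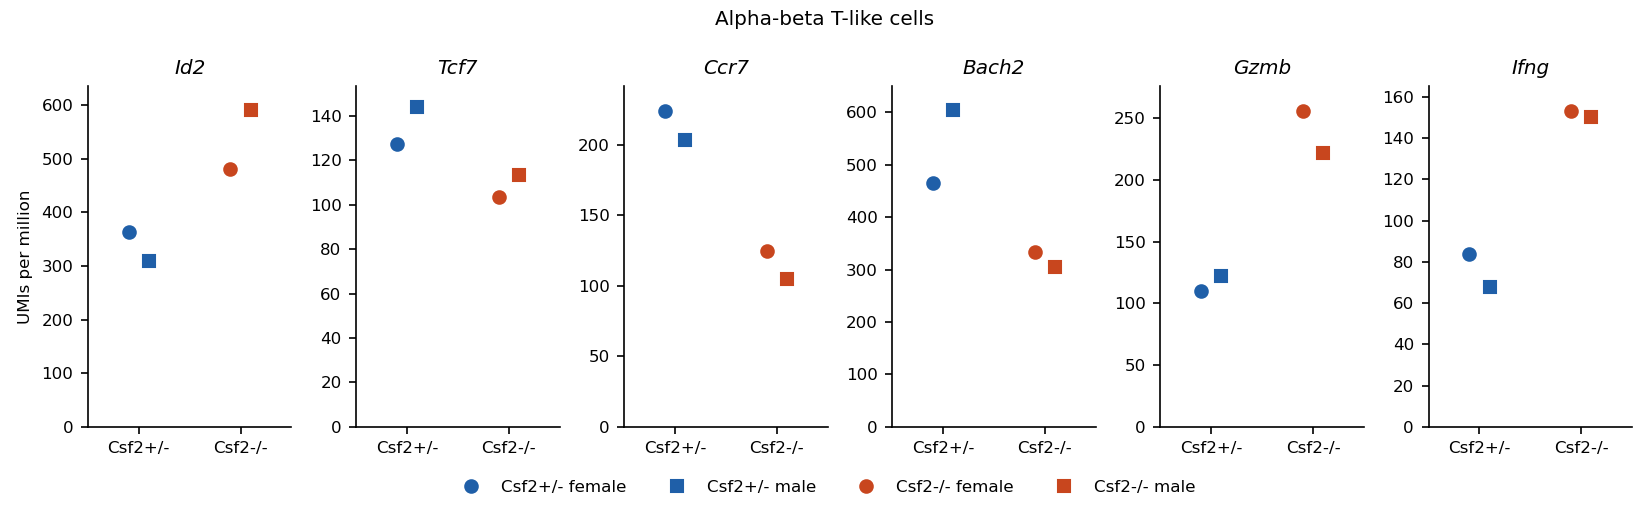
Points are the 4 libraries' CPM in alpha-beta T-like cells, by genotype (x axis), for Id2, Tcf7, Ccr7, Bach2, Gzmb and Ifng. Id2, Gzmb and Ifng are higher in both Csf2-/- libraries (Id2 at 482 and 592 CPM) and Ccr7 and Bach2 lower; Tcf7 did not pass the test.

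Zbtb16 was the 1 member with a negative log2 change in all 7 classes, from -0.22 in NK-like to -0.75 in alpha-beta T-like cells, and the genotypes did not overlap in 5 of them. Over all genes tested the genotypes did not overlap in 35.3% to 42.3%, by class. None of the 7 Zbtb16 changes passed in edgeR without a block. With sex as a block in edgeR Zbtb16 passed in ILC2-like (adjusted p = 4.41e-13) and innate-like T-like cells (adjusted p = 0.00515). That fit has 1 residual degree of freedom and called more of all genes in both classes, so its small p-values need caution. ILC2-like cells had 99.0 and 108 CPM against 77.2 and 72.2 (log2 change -0.53, SE 0.08, edgeR adjusted p = 0.0519, DESeq2 adjusted p = 0.00090). Those without a Cd3 UMI had 80.0 and 83.6 CPM against 72.8 and 66.0, a smaller difference in which the genotypes still did not overlap. Gamma-delta T-like cells had 499 and 727 CPM against 402 and 387 (-0.62, SE 0.15, edgeR adjusted p = 0.339, DESeq2 adjusted p = 0.0085). Innate-like T-like cells had 181 and 156 CPM against 114 and 133 (-0.47, SE 0.11, edgeR adjusted p = 0.0848, DESeq2 adjusted p = 0.749). The ILC2-like change passed without the Csf2-/- female (-0.58, adjusted p = 0.0167) and without the Csf2-/- male library (-0.47, adjusted p = 0.0342), in edgeR. It did not pass without either Csf2+/- library (-0.57 and -0.46). Such fits leave 1 genotype with a single library, assumed to vary like the other genotype. The gamma-delta T-like change ranged from -0.36 without the Csf2+/- male library (adjusted p = 0.405) to -0.85 without the Csf2+/- female library (adjusted p = 0.0291). The ILC1-like change was -0.30 with overlapping groups, and ranged from -0.07 without the Csf2+/- male (adjusted p = 0.974) to -0.52 without the Csf2+/- female library (adjusted p = 0.00618). The innate-like T-like change passed without the Csf2+/- male (-0.60) or the Csf2-/- male library (-0.56), but not without the Csf2+/- female (-0.33) or the Csf2-/- female library (-0.38). The 7 classes come from the same 4 libraries, so their common direction is not 7 independent observations. Bach2, a transcription factor outside the 9, also had negative log2 changes in ILC2-like (-0.38), NK-like (-0.31), ILC1-like (-0.38) and innate-like T-like cells (-0.26), where it did not pass, beside its fall in alpha-beta T-like cells. In innate-like T-like cells 4 of 7 myeloid genes rose in Csf2-/-, their summed level going from 1307 and 1167 to 2110 and 1726 CPM, and the part of such RNA was not tested.

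Rora in ILC2-like cells was at 2631 and 2902 CPM in Csf2+/- and at 2314 and 2257 in Csf2-/- (log2 change -0.33, SE 0.07, edgeR adjusted p = 0.137, with sex as a block 0.000386, DESeq2 adjusted p = 0.0039). Within clusters the log2 change of Rora was -0.04 in cluster 3, -0.23 in cluster 6 and -0.25 in cluster 7, with adjusted p-values of 0.964, 0.418 and 0.621 in edgeR. Cluster 3, where Rora and Zbtb16 are lowest, made up 35.5% and 30.2% of ILC2-like cells in Csf2+/- and 46.7% and 44.8% in Csf2-/-. Cluster 6 made up 31.9% and 40.9% against 21.2% and 28.0%. Zbtb16 had 143 and 150 CPM against 104 and 104 in cluster 6 (-0.55, SE 0.10, edgeR adjusted p = 0.0282). In clusters 3 and 7 its log2 changes were -0.28 and -0.20, with adjusted p-values of 0.844 and 0.905. These fits on single clusters were added after the data were seen.

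**Figure D4:**
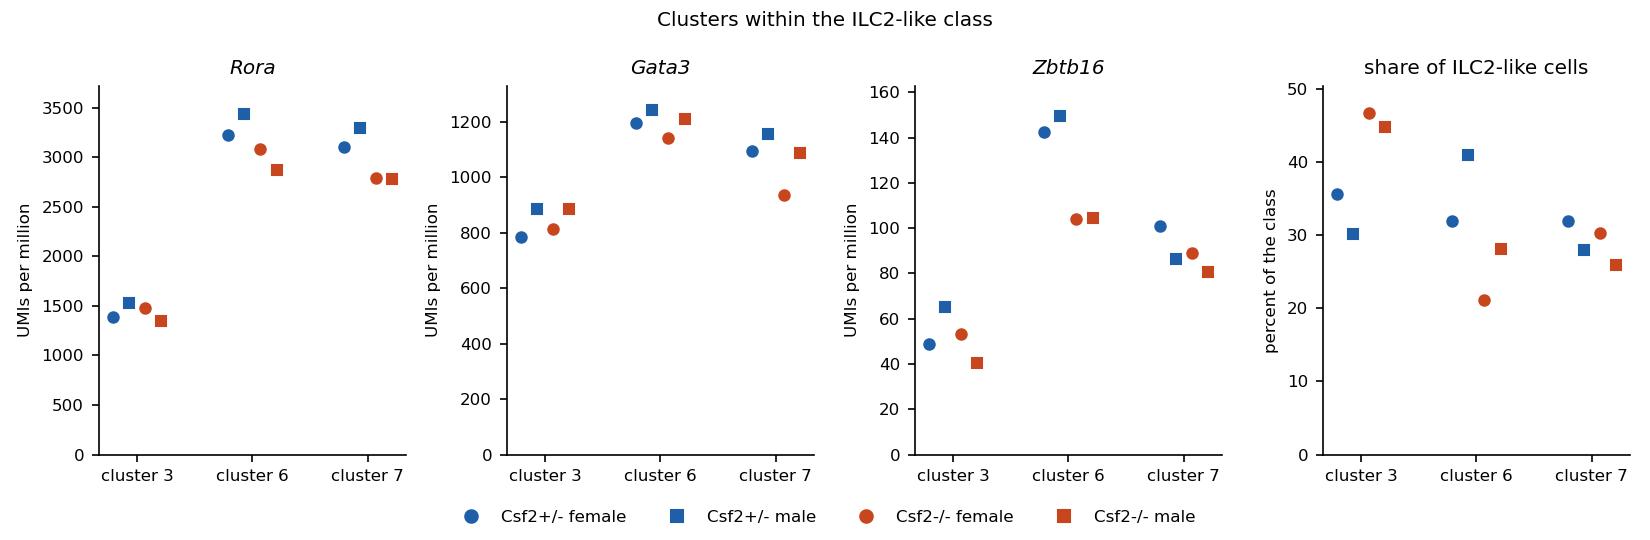
The first 3 panels plot Rora, Gata3 and Zbtb16 (CPM) in clusters 3, 6 and 7 of the ILC2-like class, and the last the share of the class each cluster makes up, in percent, with a point for each of the 4 libraries. Rora is lowest in cluster 3 in every library (1348 to 1529 CPM), and both Csf2-/- libraries have a larger share of cluster 3.

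The remaining members in ILC2-like cells did not pass without a block. Sox4 had 3.14 and 2.45 CPM against 7.24 and 8.20, from 43, 30, 92 and 148 UMIs (log2 change 1.40, SE 0.22, edgeR adjusted p = 0.0519, with no adjusted p from DESeq2). With sex as a block the adjusted p was 1.05e-06. It passed without the Csf2-/- female (1.48, adjusted p = 0.0121) or the Csf2-/- male library (1.32, adjusted p = 0.0287) and not without either Csf2+/- library, in edgeR. Few cells carried these UMIs, 30, 19, 52 and 46 per library, or 2.21%, 1.45%, 3.55% and 2.18% of cells. After thinning the shares were 0.819%, 0.388%, 1.61% and 0.578%, so the genotypes overlapped in both. In cluster 6 Sox4 was at 16.1 CPM in the Csf2-/- male library and at 0 to 0.38 CPM in the other 3. Eomes had 0.731 and 0.489 CPM against 2.60 and 1.22, from 10, 6, 33 and 22 UMIs (1.52, SE 0.51, edgeR adjusted p = 0.374, with sex as a block 0.0222), and with doublets kept its log2 change was -0.23. In cluster 6 Eomes was at 0.871, 0.381, 5.16 and 1.51 CPM and Klra8 at 0, 1.33, 11.3 and 2.84. Cluster 7 had Eomes at 0.612, 0.793, 1.35 and 1.78 CPM. Doublet removal took 7.65%, 7.01%, 3.03% and 9.82% of barcodes, and its part in the Eomes value was not tested further. In the whole ILC2-like class 21 of 24 NK and ILC1 genes had a positive log2 change, with a median of 1.13 against -0.01 over all genes and none called. Their summed level was 928 and 975 CPM against 1184 and 994. All 8 proliferation genes had a positive log2 change, with a summed level of 158 and 256 CPM against 339 and 350, and the part of dividing cells was not tested. Gata3 (log2 change -0.19), Bcl11b (-0.02), Tcf7 (0.23), Tbx21 (0.25) and Id2 (0.00) had adjusted p-values of 0.489 to 0.998 in edgeR. Of 20 ILC2 programme genes, all tested, none passed. The 2 lowest p-values were those of Hs3st1 (312 and 363 CPM against 232 and 287) and Calca (363 and 333 against 269 and 324).

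NK-like cells had no member that passed without a block. With sex as a block Bcl11b (adjusted p = 0.000299), Rora (0.00121), Tcf7 (0.0140) and Id2 (0.0275) passed, with log2 changes of 0.72, 0.34, 0.25 and 0.21. Bcl11b had 9.56 and 14.6 CPM against 17.2 and 22.7 (log2 change 0.71, SE 0.21, edgeR adjusted p = 0.604), and the log2 change was 0.28 without the clusters led by division, replication or interferon genes. Rora had 58.3 and 69.7 CPM against 70.6 and 94.7 (0.35, edgeR adjusted p = 0.668) and 0.09 without those clusters. In NK-like cells without a Cd3 UMI, Bcl11b had 4.40 and 6.59 CPM against 6.07 and 8.96. Rora there had 67.2 and 73.3 CPM against 66.2 and 84.3. The genotypes thus overlapped in Bcl11b and Rora, while those of Tcf7 and Id2 did not. Of 20 T cell genes tested in the whole class, 14 had a positive log2 change and 6 a negative one, with none called. The part of such RNA was not tested. Eomes had a log2 change of -0.04 (SE 0.07) and Tbx21 one of -0.12 (SE 0.07). Il7r, the IL-7 receptor, had 8.17 and 10.5 CPM against 18.8 and 22.2 (1.12, edgeR adjusted p = 0.147). It is on the ILC2 programme list, of which 16 genes were tested in NK-like cells. Of these, 13 had a positive log2 change and 3 a negative one, with a median of 0.34 and none called. Il1rl1 among them had 0.784 and 1.39 CPM against 2.25 and 4.79. The part of RNA from ILC2-like cells was not tested.

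ILC1-like cells had Eomes at 14.9 and 14.5 CPM against 11.1 and 4.64 (log2 change -0.81, SE 0.30, edgeR adjusted p = 0.441). Without the Csf2-/- female library, the higher of the Csf2-/- pair, it was -1.68 (edgeR adjusted p = 0.00391), and without the Csf2-/- male library -0.39 (adjusted p = 0.819). The other members' log2 changes lay between -0.30 for Zbtb16 and 0.52 for Sox4. Of 12 ILC2 programme genes tested in this class 10 had a positive log2 change and 2 a negative one. The part of RNA from ILC2-like cells in these values was not tested. By the test, 2 of the 12 rose. They were Ccl1, a chemokine (205 and 185 CPM against 503 and 401, log2 change 1.21, SE 0.12, edgeR adjusted p = 9.79e-05), and Il7r (173 and 154 against 221 and 242, 0.49, adjusted p = 0.0300). In ILC3-like cells Id2 had 499 and 360 CPM against 574 and 574 (0.38, SE 0.15, edgeR adjusted p = 0.856) and Zbtb16 458 and 509 against 356 and 429 (-0.33). Trdc, a gamma-delta receptor gene, stood at 88.9 and 48.9 against 146 and 147 CPM there, and its part in these values was not tested.

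In gamma-delta T-like cells Tbx21 had 8.93 and 8.03 CPM against 11.3 and 15.1 (log2 change 0.59, SE 0.28, edgeR adjusted p = 0.714) and Rora 1364 and 1487 against 1209 and 1183 (-0.24, SE 0.09, adjusted p = 0.594). Innate-like T-like cells had Rora at 212 and 193 CPM against 247 and 243 (0.26, SE 0.10, edgeR adjusted p = 0.481). Tmem176a and Tmem176b of the type 3 list rose in innate-like T-like cells (Tmem176b from 54.4 and 47.9 to 93.0 and 78.2 CPM), beside the rise of 4 myeloid genes there.

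**Figure D5:**
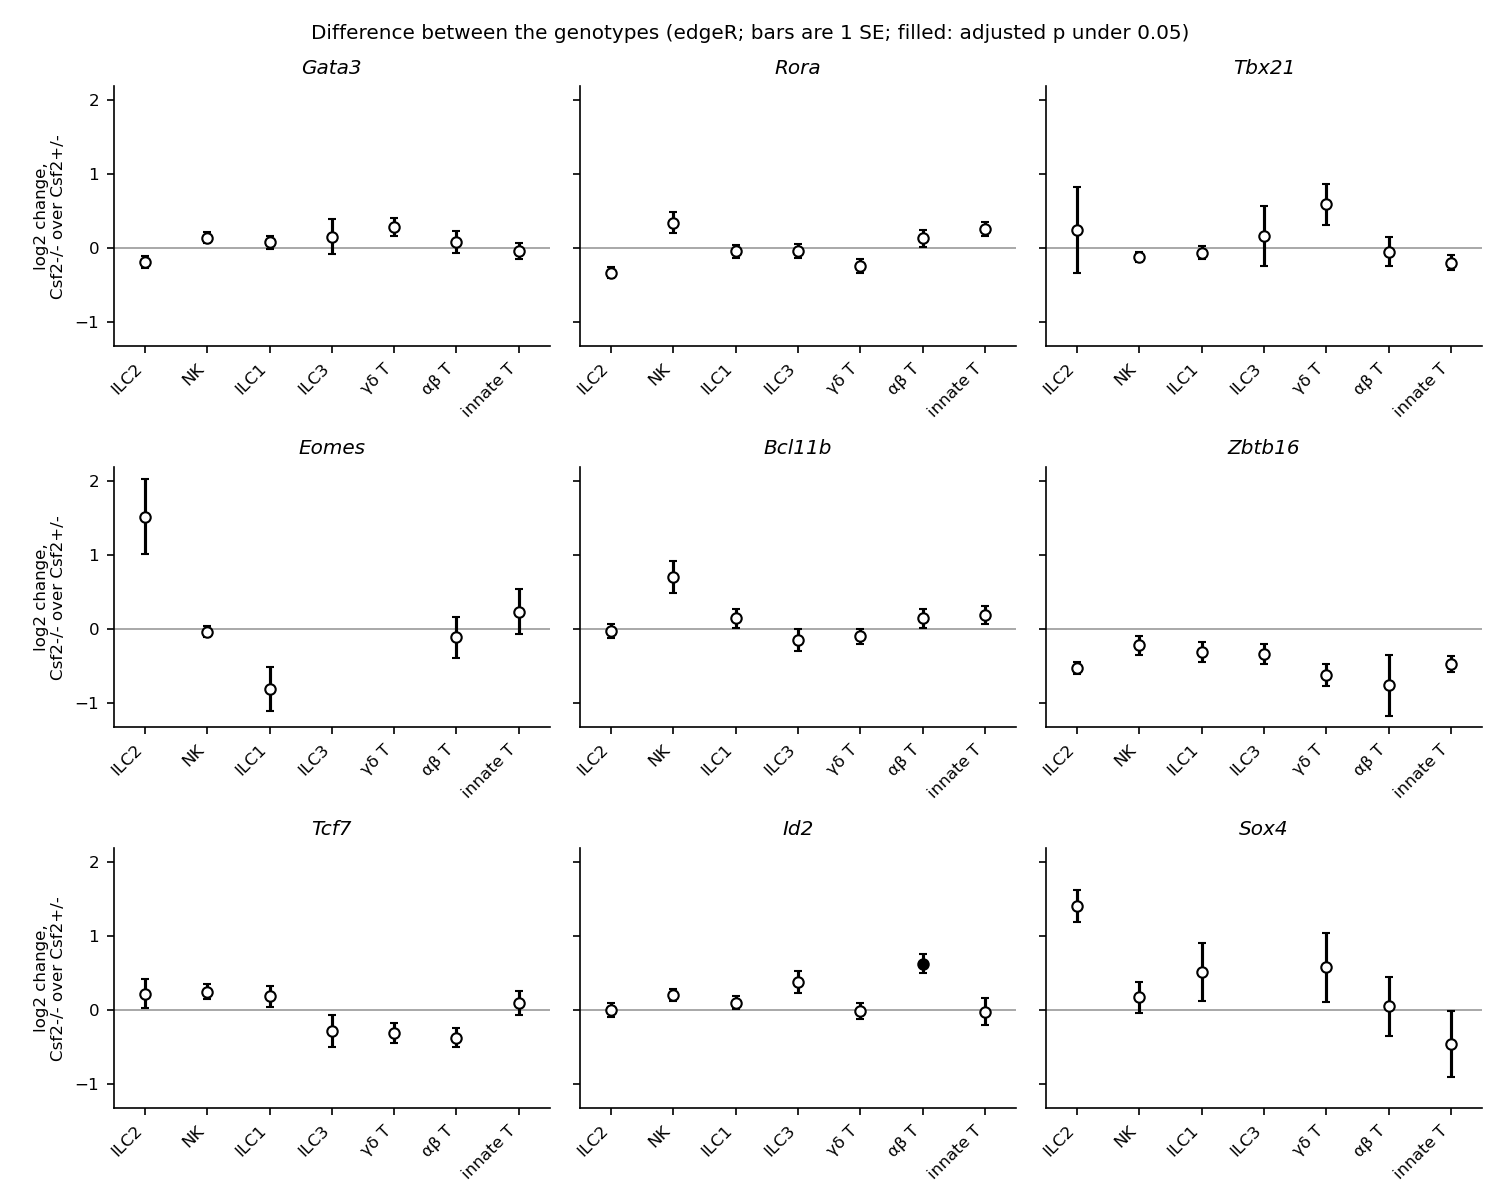
Each panel plots the log2 change of 1 gene, Csf2-/- over Csf2+/-, in the 7 classes, with bars of 1 SE from edgeR; a filled point has an adjusted p under 0.05. Id2 in alpha-beta T-like cells (0.63) is the filled point, and Zbtb16 lies below 0 in all 7 classes.

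The difference between the changes in ILC2-like and NK-like cells was tested directly. It was not tested in cells without a Cd3 UMI, where Bcl11b and Rora of NK-like cells overlapped between genotypes. No gene passed in edgeR (0% of 12858, with 786 at an unadjusted p under 0.05), while DESeq2 called 19. Bcl11b had a difference of -0.74 (SE 0.12, adjusted p = 0.153), Rora -0.67 (SE 0.15, adjusted p = 0.557) and Sox4 1.26 (SE 0.30, adjusted p = 0.333). DESeq2 called Bcl11b (-0.73, adjusted p = 0.0201) and Rora (-0.66, adjusted p = 0.0164). In edgeR with doublets kept, Rora passed (-0.40, adjusted p = 0.0276). Without 1 library its difference ranged from -0.44 without the Csf2-/- male (adjusted p = 0.0799) to -0.88 without the Csf2-/- female library (adjusted p = 8.74e-05). That of Bcl11b ranged from -0.56 without the Csf2+/- female (adjusted p = 0.131) to -0.92 without the Csf2+/- male library (adjusted p = 0.00489), and with sex as a block it was -0.74 (adjusted p = 0.00826).

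Tcf7 lies on chromosome 11, as does Csf2, with 23 protein-coding genes between them in the RefSeq order of GRCm38.p6, and Tbx21 is on the same chromosome. Whether the Csf2-/- mice differ from the Csf2+/- mice in the region around Csf2 was not tested.

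The genes most like each member were found from log2(CPM + 1) over 68 sums, 17 classes of leukocytes and other cells in 4 libraries, among genes with a mean of at least 5 CPM. These correlations describe which classes share a gene, and sums of 1 library share its depth. Among the genes most like Gata3 were Skap1 (Pearson's r = 0.90) and Prkcq (0.89), which act in T cell receptor signalling. Rora was most like Icos (0.92), Cxcr6 (0.92) and Cish (0.92), and Bcl11b like Icos (0.97), Cxcr6 (0.96) and Pde11a (0.92). Tbx21 was most like Ctsw (0.91), Ifng (0.90) and Klrc1 (0.88), and Eomes like Gzma (0.90), Klre1 (0.87) and Klra3 (0.80). Zbtb16 was most like Fosl2 (0.84), Ap3s1 (0.82) and Mgat5 (0.82), and Tcf7 like Fam189b (0.87), Gbp4 (0.86) and Cd3g (0.86). Id2 and Sox4 had looser matches, with Nr4a3 (0.69), Bhlhe40 (0.67) and Acot7 (0.65) for Id2 and Tpm1 (0.65), Gga2 (0.64) and Serinc5 (0.64) for Sox4.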

How the data were processed

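The deposited matrices hold raw UMI counts of each gene in each barcode, which the authors made with Cell Ranger 7.0.0 on GRCm39, per the submitters' processing notes. The members and gene lists were chosen with earlier results of these data known.

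Barcodes passed with 500 UMIs and 300 genes or more and a mitochondrial share of up to 10%. Scrublet doublets were removed (3.03% to 9.82% per library). Its automatic threshold worked in the 2 Csf2-/- libraries, and in the Csf2+/- libraries the expected share was removed instead. Cells were clustered with scanpy 1.11.5 (40 components of 3000 variable genes without the 9 members, 15 neighbours, Leiden resolution 1.5, seed 1) into 43 clusters. Clusters were named from fixed markers, with a minimum score of 0.8 and at least 3 markers at 50 CPM or more, thresholds set after the data were seen. These names were made anew from the matrices, and a difference from the study can come from them. CPM was computed from UMIs summed per class and library.

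Genotype was tested on these sums with edgeR 4.0.16 by the quasi-likelihood test (R 4.3.3, TMM, default low-count filter, 2 residual degrees of freedom), with p-values adjusted by Benjamini-Hochberg over all genes of a class at 0.05. DESeq2 1.42.0 was an alternative. The test was tested on simulated data with 200 changed genes. The simulated counts had the same dispersion for every gene and no effect of sex, so real recovery can differ. In ILC2-like cells it recovered 56% of genes changed by 1 and 96% of those changed by 2 on the log2 scale, and in ILC3-like cells 48% and 83%. The test between ILC2-like and NK-like cells recovered 27% and 85%. False calls made up 2.56% of calls in ILC2-like, 6.32% in NK-like and 8.39% in ILC3-like cells. The fit with sex as a block was not tried on simulated data, so its share of false calls is not known. Leaving out each library, sex as a block, other size factors, no low-count filter, other clusterings, kept doublets, at least 1000 UMIs per cell and a Cd3 gate were also tried. Fits on single clusters, the fit without dividing and interferon clusters, and the split by Cd4 and Cd8 were added after the data were seen.

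The text names all 9 members in every class, up to 3 genes most like each, and of fixed lists up to 4 genes per class by p. Il1rl1, Klra8, Ncr1, Itga1, Il23r, Cd3e and Trdc check the class names. Lef1, Fos and Hspa1a were named after their values were seen. No coordinates are given because the annotation at hand is of another build, which served only for gene order on the chromosome. Results for some genes are not reported here.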

Additional observations from a re-analysis of the deposited data

Results flagged for a closer look

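Several members had both Csf2-/- libraries above both Csf2+/- libraries in 1 class and below them in another. Of all genes tested, 35.3% to 42.3% had such separation in a class, and these differences between classes were not tested except between ILC2-like and NK-like cells. None of the values passed the edgeR test of genotype alone with all 4 libraries. With sex as a block, Rora in ILC2-like and NK-like cells, Tcf7 in NK-like cells and Eomes in ILC2-like cells passed.

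Rora had a log2 change (Csf2-/- over Csf2+/-) of 0.35 in NK-like, 0.13 in alpha-beta T-like and 0.26 in innate-like T-like cells, against -0.33 in ILC2-like and -0.24 in gamma-delta T-like cells. In NK-like cells without a Cd3 UMI the genotypes overlapped in Rora. The difference of Rora between ILC2-like and NK-like cells was -0.67 with an adjusted p of 0.557 in edgeR, and passed in DESeq2 (adjusted p = 0.0164).

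Tcf7 had 0.25 in NK-like and 0.19 in ILC1-like cells, against -0.28 in ILC3-like, -0.31 in gamma-delta T-like and -0.37 in alpha-beta T-like cells. Tbx21 had 0.59 in gamma-delta T-like cells, against -0.12 in NK-like and -0.20 in innate-like T-like cells. Eomes had 1.52 in ILC2-like cells, from 6 to 33 UMIs per library, against -0.81 in ILC1-like cells. The ILC2-like value turned negative with doublets kept.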

How the results depend on the processing

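Over 69 changes of members, 837 values were recomputed under other settings. Of these, 738 kept their direction and their side of the threshold, 61 turned sign, 36 newly passed and 2 were lost, both of Id2 in alpha-beta T-like cells (adjusted p = 0.106 without the Csf2-/- male library and 0.719 at Leiden resolution 0.8). Members called numbered 1 of 60 in edgeR, 4 of 63 in DESeq2 and 6 of 63 with no low-count filter. In edgeR the share of all genes called was 0% to 0.311%, by class. For DESeq2 and the fit with no filter only counts over all genes are given, below. Whether members were called more often there than other genes was therefore not tested. Among changes whose genotypes did not overlap, these turned sign: Eomes in ILC2-like cells with doublets kept (-0.23), Rora in NK-like cluster 0 (-0.049), Tbx21 in NK-like cluster 13 (0.15), Bcl11b in NK-like cluster 1 (-0.26), Tcf7 in ILC3-like cells under the Cd3 gate (0.063) and Tcf7 in alpha-beta T-like cells at Leiden 0.8 (0.012). The Tcf7 difference between ILC2-like and NK-like cells ranged from -0.44 to 0.39 without 1 library, turning positive without the Csf2-/- male library. The causes were not tested.

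Counts of all called genes depended strongly on the setting. ILC2-like cells had 9 in edgeR, 106 with DESeq2, 235 with no low-count filter, 1 to 112 without 1 library, 19 with doublets kept, 1 at Leiden 0.8, 21 with members among the clustering genes, 20 under the Cd3 gate, and 3, 24 and 3 in clusters 3, 6 and 7. NK-like cells had 1, then 34, 15, 0 to 2 without 1 library, 3 with members among the clustering genes, 43, 16 and 5 in clusters 0, 1 and 13, and 3 without the dividing and interferon clusters. ILC1-like cells had 13, then 28, 93, 65 to 114 and 20 at Leiden 0.8. ILC3-like cells had 0, then 14 with no filter, 0 to 20, 4 with members among the clustering genes and 2 under the gate. Gamma-delta T-like cells had 2, then 17, 130, 7 to 30, 7 with doublets kept, 4 at Leiden 0.8 and 5 with members among the clustering genes. Alpha-beta T-like cells had 26, then 134 with no filter, 59 to 137 and 15 with doublets kept, and innate-like T-like cells 21, then 90, 24 to 91 and 40. The test between ILC2-like and NK-like cells gave 0, then 19 with DESeq2, 40 with no filter, 9 to 18 and 2 with doublets kept. The share of NK-like cells with both T-box factors was 48.2%, 11.5% at 3000 UMIs and 4.21% at 1500 UMIs. The class in which a member was highest held for 9 of 9 with at least 1000 UMIs per cell or means over cells, 8 with doublets kept or members among the clustering genes, and 7 at Leiden 0.8 or under the gate. Under the gate Bcl11b was highest in gamma-delta T-like cells (452 CPM) and Tcf7 in ILC3-like cells (124 CPM). ILC3-like cells formed no class at Leiden 0.8 or with doublets kept, and innate-like T-like cells none at Leiden 0.8, so those fits were not run.

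With sex as replicate block, called genes numbered 534 of 11588 tested in ILC2-like, 449 of 12755 in NK-like, 41 of 10469 in ILC1-like and 30 of 6614 in ILC3-like cells. They numbered 15 of 9834 in gamma-delta T-like, 160 of 8348 in alpha-beta T-like and 112 of 10255 in innate-like T-like cells. The test between classes called 26 of 12858. The block called 10 of 60 members: Rora, Eomes, Zbtb16 and Sox4 in ILC2-like, Rora, Bcl11b, Tcf7 and Id2 in NK-like, Id2 in alpha-beta T-like and Zbtb16 in innate-like T-like cells. Same-sex libraries share sex but come from different mice, and their deviations correlated at 0.09 to 0.32 across genes. Where 1 library was left out, its genotype kept a single library, which was assumed to vary like the other genotype. Low UMI counts kept Eomes and Sox4 in ILC3-like cells and Eomes in gamma-delta T-like cells from being tested.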
